A study of Mus musculus with 6 samples.

Results

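The SLC25 family of mitochondrial carriers was described by its 49 rows in a count table of 24197 mouse genes, namely every symbol made of Slc25a and a number, with Ucp2 and Ucp3 added. Polyadenylated RNA came from stromal-vascular cells, the fraction of fat tissue without adipocytes, taken from inguinal fat of C57BL/6 mice. One group of 3 libraries, Puro, had a control (puro) retrovirus, and the other group of 3, Prdm16, had a Prdm16 retrovirus. Prdm16, a zinc-finger regulator of transcription that brown and beige fat are known for, came here from a virus and not from its own locus. The comparison asks how its forced expression changed the cells' transcripts, here those of the carriers. The labels name no separate cultures or animals for the replicates, so p-values reflect only how these libraries vary, and that variation may be technical.

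Carriers of this family are small proteins of the inner mitochondrial membrane, built from a repeated pair of membrane-spanning helices, that exchange or admit metabolites to which that membrane is otherwise closed. They pass ADP and ATP, phosphate, dicarboxylates, amino acids, acylcarnitines, cofactors and iron, and so tie the respiratory chain and the citrate cycle to the cytosol. The uncoupling proteins belong to the same family, and Ucp1, which carries the heat-producing proton leak of brown fat, is its best known member in adipose tissue. Ucp1 was not among the rows chosen by the symbol rule.

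The library totals ran from 28169059 to 35798201 counts. Prdm16 itself stood at 0.609 ± 0.148 CPM in the Puro libraries and 2656 ± 146 CPM in those with its virus (SD, n = 3), where CPM, the usual scale of read counts, is relative to the TMM-scaled library total. The summed level of 8 stromal markers was 1837 to 1883 CPM in Puro and 1601 to 1654 CPM in Prdm16 libraries, but its members moved apart: of 7 tested 5 were lower, among them Fbn1 (2.87-fold), Pdgfrb (2.84-fold) and Cd34 (17.1-fold), and Ly6a was 2.63-fold higher. Pdgfra did not pass, and Dcn, Thy1 and Dpp4 were low in both groups. The 6 adipocyte markers summed to 104 to 122 CPM and 517 to 616 CPM, nearly all of it Fabp4. All 4 tested were higher: Fabp4 (4.78-fold), Cidec (36.7-fold), Adipoq (8.30-fold) and Cfd (7.09-fold). Cidec, Adipoq and Cfd were still rare in the Prdm16 libraries, with means of 3.46, 2.36 and 0.448 CPM. Plin1 (10 summed counts in Puro and 9 in Prdm16) and Lep (0 and 5) were too low to be tested. The 6 macrophage markers summed to 14.2 to 15.3 CPM in Puro and 8.33 to 8.61 CPM in Prdm16 libraries, with Cd14 and Lyz2 lower, Cd68 not passing and Emr1 at 0 counts. The 5 endothelial markers stayed between 0.449 and 0.677 CPM in all libraries, with Cdh5 at 0 counts. The 7 muscle markers summed to 1.26 to 2.35 CPM and 0.725 to 1.05 CPM, mostly Actn3, with Ckm, Myh4 and Myog at 0 counts. The 6 markers of mammary epithelium summed to 0.258 to 0.328 CPM in Puro and 21.04 to 22.8 CPM in Prdm16 libraries, through Krt18, Cdh1 and Epcam, while Krt8, Krt14 and Krt5 had at most 4 summed counts in either group. The part of these marker shifts in the carriers' changes was not tested, and in bulk RNA fewer cells of a type and less RNA per cell cannot be told apart.

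Of the 49 carriers 42 had enough counts to be tested. By edgeR's quasi-likelihood fit to all 13805 tested genes, 17 rose and 10 fell with Prdm16 at a Benjamini-Hochberg adjusted p below 0.05, and 15 did not pass. Over all tested genes 37.5% were called higher, 38.0% lower and 75.6% in either direction, whereas the carriers stood at 40.5%, 23.8% and 64.3%. The median log2 fold change (Prdm16 over Puro) of the tested carriers was 0.06, and that of all tested genes was −0.01. The median size of the change was 0.37 for the carriers and 0.38 for all genes. Changes both called and 1 or more in log2 size were seen for 5 of the 42 carriers, against 3015 of the 13805 tested genes (21.8%). The CPM values of the groups did not overlap for 18 of the 42 carriers on the higher side and 13 on the lower side. Among all tested genes this held for 10712 of 13805 on either side (77.6%). The share of carriers called higher was thus near the background and the share called lower was below it. With the median change of each chromosome removed, 13 of the 42 carriers and 4993 of the 13805 genes were lower, which narrowed that gap.

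**Figure D1:**
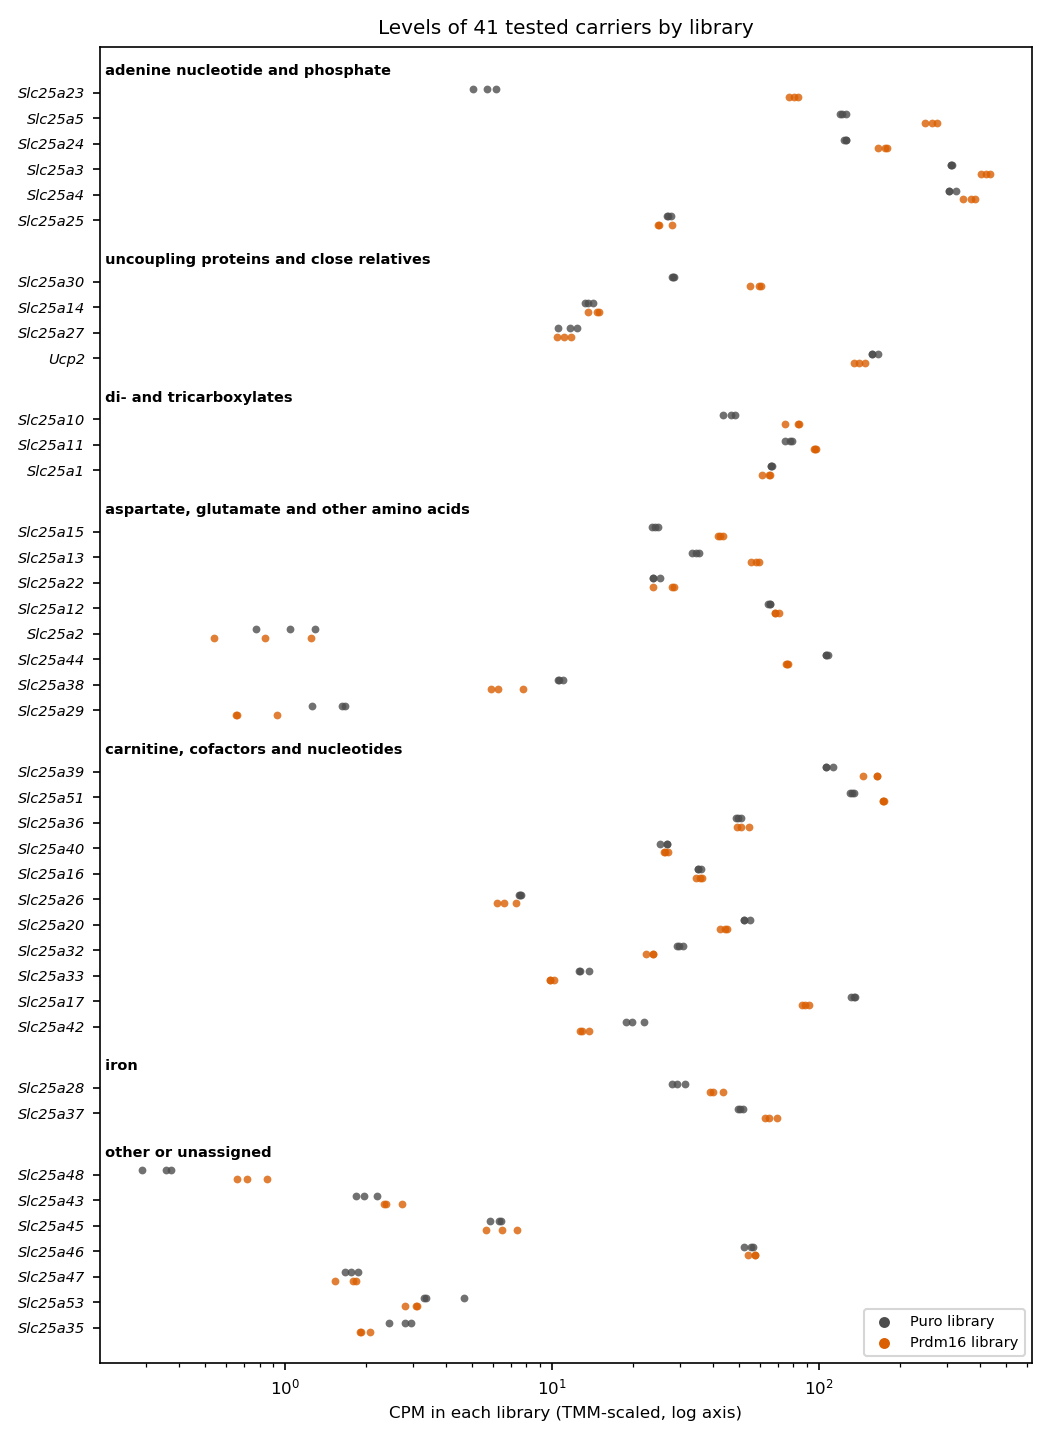
CPM of 41 tested carriers in each of the 6 libraries, on a log axis and grouped by role, with Puro in grey and Prdm16 in orange. Slc25a23 moved from 5.03 to 6.13 CPM to 77.1 to 83.4 CPM; CPM are not scaled to transcript length, so rows are to be read one at a time.

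The group that carries adenine nucleotides and phosphate held Slc25a23, the carrier with the largest rise. Of its 6 tested members 5 rose, none fell and Slc25a25 did not pass. Slc25a23 encodes an ATP-Mg/phosphate carrier that calcium controls from the intermembrane side. It had 5.03, 6.13 and 5.69 CPM in the Puro libraries and 77.1, 80.4 and 83.4 CPM in the Prdm16 libraries. Every Prdm16 library was thus far above every Puro library. It was 14.2-fold higher (log2 fold change 3.83 ± 0.07, SE, n = 3; adjusted p = 2.53e-12) and ranked at 265 of 13805 genes by log2 fold change. Its nearest relatives had smaller changes: Slc25a24, with 126, 124 and 126 against 167, 179 and 176 CPM, rose by 0.47 ± 0.04 on the log2 scale, and Slc25a25 had −0.07 ± 0.06 (adjusted p = 0.314). Slc25a31, the testis form of the ADP/ATP carrier, and Slc25a41 stayed below the filter, with no more than 10 counts in either group.

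The ADP/ATP carriers Slc25a4 and Slc25a5, which exchange cytosolic ADP for matrix ATP, both rose but by different amounts. Slc25a5, the form of growing cells, had 121, 126 and 119 CPM in the Puro libraries and 250, 265 and 277 CPM in the Prdm16 libraries. Its groups lay far apart, and it was 2.16-fold higher (log2 fold change 1.11 ± 0.04, adjusted p = 1.23e-09). Slc25a4, the form of heart and muscle, had 307, 308 and 325 CPM in Puro and 382, 346 and 371 CPM in Prdm16 libraries. Here the groups were close without overlap, at a log2 change of 0.23 ± 0.04 (adjusted p = 0.000577). Per kb of transcript Slc25a4 exceeded Slc25a5 in the Puro group (163 ± 5.25 against 98.6 ± 2.66 CPM per kb, SD, n = 3). In the Prdm16 group the order per kb was the other way round, at 190 ± 9.57 and 213 ± 10.8 CPM per kb. That order depends on the transcript lengths used. In CPM Slc25a4 stood above Slc25a5 in both groups, at 313 against 122 in Puro and 366 against 264 in Prdm16 libraries. Slc25a3, the phosphate carrier that supplies ATP synthase, was the most abundant carrier per kb in both groups, with 194 ± 0.664 and 261 ± 9.50 CPM per kb. Its CPM were 312, 312 and 314 against 405, 421 and 435, a log2 change of 0.43 ± 0.04 (adjusted p = 7.40e-07).

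How far reads of near copies can mix was measured on the transcripts, since no source used here gives the authors' treatment of reads with several matches. No carrier shared a window of 50 bases with another carrier, and 30 of the 49 shared none with any other annotated gene. Slc25a5 was the exception in scale: 46.6% of its 50-base windows also stood in 1 or more of 9 annotated pseudogenes, so its level is uncertain, and the order of Slc25a4 and Slc25a5 with it. The coding sequences of Slc25a4 and Slc25a5 were 77.4% identical over 894 bases, with a longest identical run of 20 bases. The stretch around that run is shown because it holds the longest identical run of the aligned coding sequences. Capitals mark the bases that differ, 19 of 90, at coding bases 287 to 376 of the GENCODE transcripts (GRCm38, chromosomes 8 and X).
Slc25a4: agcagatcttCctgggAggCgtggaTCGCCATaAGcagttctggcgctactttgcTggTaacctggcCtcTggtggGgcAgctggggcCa
Slc25a5: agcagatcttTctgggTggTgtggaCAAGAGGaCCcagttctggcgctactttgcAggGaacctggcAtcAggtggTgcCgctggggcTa
A read of 50 bases that covers any part of this stretch therefore meets differing bases between these carriers, while a pseudogene of Slc25a5 can still take or share its reads.

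Uncoupling proteins and their close relatives went different ways: of 4 tested, 1 rose, 1 fell and 2 did not pass. Slc25a30, a relative of the uncoupling proteins found first in kidney, had 27.99, 28.5 and 28.4 CPM in the Puro libraries and 55.2, 60.8 and 59.3 CPM in the Prdm16 libraries. All Prdm16 libraries lay above, at a log2 change of 1.05 ± 0.05 (adjusted p = 4.05e-09). Ucp2, the widely expressed uncoupling protein, had 157, 157 and 166 CPM in Puro and 141, 135 and 148 CPM in Prdm16 libraries. It was 1.13-fold lower (adjusted p = 0.00299), with narrowly separate groups. The brain-type relatives Slc25a14 and Slc25a27 had log2 fold changes of 0.08 ± 0.07 and −0.06 ± 0.08 and did not pass; the 3 libraries of Slc25a14 ran from 13.2 to 14.2 CPM in Puro and from 13.6 to 14.99 CPM in Prdm16. Ucp3, the muscle form, had 9 summed counts in Puro and 10 in Prdm16 and was not tested. Ucp1, outside the chosen rows, had 1 and 14 counts. Among Ucp1, Ucp2 and Ucp3 only Ucp2 thus reached a level that could be tested.

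Carriers of di- and tricarboxylates had 2 higher and 1 not passing among 3 tested. Slc25a10, the dicarboxylate carrier that exchanges malate or succinate for phosphate, had 43.5, 46.6 and 48.2 CPM in the Puro libraries and 83.7, 74.4 and 83.4 CPM in the Prdm16 libraries. It was 1.75-fold higher (log2 fold change 0.81 ± 0.06, adjusted p = 1.49e-07) and its groups were well apart. Slc25a11, the oxoglutarate/malate exchanger of the malate-aspartate shuttle, had 74.7, 77.8 and 78.8 CPM against 97.2, 95.3 and 96.8 CPM, a log2 change of 0.32 ± 0.04 (adjusted p = 1.49e-05). Slc25a1, which exports citrate for fatty acid synthesis, had 66.2 ± 0.149 and 63.9 ± 2.27 CPM (SD, n = 3) and did not pass (log2 fold change −0.05 ± 0.04, adjusted p = 0.237). In the edgeR fit with chromosome medians removed it passed on the higher side, at 0.10 (adjusted p = 0.0336). Slc25a21, the oxoadipate carrier, had 3, 4 and 5 counts in Puro and 11, 8 and 11 in Prdm16 libraries and was too low to be tested. Its transcript shares sequence with that of its neighbour Pax9, which had 0.291 ± 0.0236 and 13.8 ± 0.109 CPM; the part of Pax9 reads in those few counts was not tested.

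Among amino acid carriers 3 rose, 3 fell and 2 did not pass of 8 tested. Slc25a15, which brings ornithine into the matrix for the urea cycle, had 24.9, 23.6 and 24.3 CPM in the Puro libraries and 41.8, 43.6 and 42.4 CPM in the Prdm16 libraries. The groups were tight and separate (log2 fold change 0.81 ± 0.05, adjusted p = 2.82e-08). Slc25a13, the aspartate/glutamate carrier called citrin, had 33.3, 35.4 and 34.5 CPM against 55.7, 59.6 and 57.8 CPM, a log2 change of 0.74 ± 0.04 (adjusted p = 4.22e-08). Its partner Slc25a12, called aralar, had 64.3, 65.4 and 65.2 against 68.3, 70.5 and 68.5 CPM and was higher by only 0.09 ± 0.04 (adjusted p = 0.0415), a call that was lost under 10 of the 16 other settings tried, among them the replicate block and leaving out any 1 of 5 libraries.

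The amino acid carriers that fell were those of branched-chain amino acids, glycine and basic amino acids. Slc25a44, which admits branched-chain amino acids and is known from brown fat, had 106, 108 and 106 CPM in the Puro libraries and 76.2, 75.6 and 75.1 CPM in the Prdm16 libraries. The libraries of a group nearly coincided, and the gene was 1.41-fold lower (log2 fold change −0.50 ± 0.04, adjusted p = 2.05e-07). Slc25a38, which supplies glycine to haem synthesis, had 10.9, 10.6 and 10.5 CPM against 6.25, 5.87 and 7.76 CPM (log2 fold change −0.68 ± 0.10, adjusted p = 9.54e-05). Slc25a29, a carrier of arginine and lysine, was rare, with 1.26, 1.63 and 1.67 against 0.653, 0.656 and 0.929 CPM (152 and 73 summed counts), and was 2.04-fold lower (log2 fold change −1.03 ± 0.21, adjusted p = 0.00100). Slc25a22, a glutamate carrier, had a log2 change of 0.14 ± 0.07 (adjusted p = 0.0826) and did not pass; it passed without Prdm16 replicate 2 (0.22), with no low-count filter (0.16) and with chromosome medians removed (0.17), and had 0.10 (adjusted p = 0.260) without Prdm16 replicate 3. Its relative Slc25a18 had 0 counts in Puro libraries, where the floor of 3 counts stands for 0.0860 to 0.0968 CPM, and 5 in all Prdm16 libraries together.

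The largest group, carriers of acylcarnitines, cofactors and nucleotides, had 3 higher, 5 lower and 4 not passing of 12 tested. Among those that rose were Slc25a39, needed for glutathione import, and Slc25a51, the NAD carrier. Slc25a39 had 106, 106 and 113 CPM in the Puro libraries and 165, 146 and 165 CPM in the Prdm16 libraries, with every Prdm16 library above every Puro library (log2 fold change 0.55 ± 0.05, adjusted p = 2.13e-06). Slc25a51 had 135, 133 and 131 CPM against 173, 175 and 174 CPM, a log2 fold change of 0.39 ± 0.03. Of those that fell, Slc25a17, a carrier of CoA and other nucleotides in the peroxisome rather than the mitochondrion, was the most abundant, with 137, 135 and 132 CPM against 88.5, 91.3 and 86.2 CPM. Its groups were far apart (log2 fold change −0.60 ± 0.04, adjusted p = 8.41e-08). Slc25a42, which imports CoA into mitochondria, had a log2 fold change of −0.63 ± 0.07, the pyrimidine nucleotide carrier Slc25a33 of −0.39 ± 0.07 and the folate and FAD carrier Slc25a32 of −0.36 ± 0.05. Slc25a20, which exchanges acylcarnitine for carnitine, had 52.4, 55.04 and 52.5 CPM in Puro and 42.4, 44.2 and 45.1 CPM in Prdm16 libraries, 1.22-fold lower (adjusted p = 0.000104). The members that did not pass, Slc25a16, Slc25a26, Slc25a36 and Slc25a40, had log2 fold changes from −0.17 to 0.05.

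Both iron carriers were called higher. Slc25a37, mitoferrin 1, had 49.7, 50.4 and 52.0 CPM in the Puro libraries and 65.1, 69.5 and 62.7 CPM in the Prdm16 libraries (log2 fold change 0.38 ± 0.05, adjusted p = 1.75e-05). Slc25a28, mitoferrin 2, had 27.99, 29.3 and 31.5 CPM against 43.6, 38.9 and 40.1 CPM (log2 fold change 0.47 ± 0.06, adjusted p = 2.78e-05). Neither rise was kept once chromosome medians were removed, as given with those medians. Of the 7 tested carriers with other or unassigned substrates 1 rose, 1 fell and 5 did not pass. Slc25a48, linked to mitochondrial choline uptake, had 0.290, 0.373 and 0.358 CPM in Puro and 0.852, 0.656 and 0.719 CPM in Prdm16 libraries, from 34 and 73 summed counts, and was higher (log2 fold change 1.12 ± 0.25, adjusted p = 0.00194), and the orphan carrier Slc25a35 had −0.48 ± 0.13 (adjusted p = 0.00747). Slc25a46, a protein of the outer membrane that acts in mitochondrial dynamics, had 56.7, 55.6 and 52.3 CPM in Puro and 54.1, 57.7 and 57.6 CPM in Prdm16 libraries, which overlapped, and did not pass. Slc25a34 and Slc25a54 were too low to be tested.

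**Figure D2:**
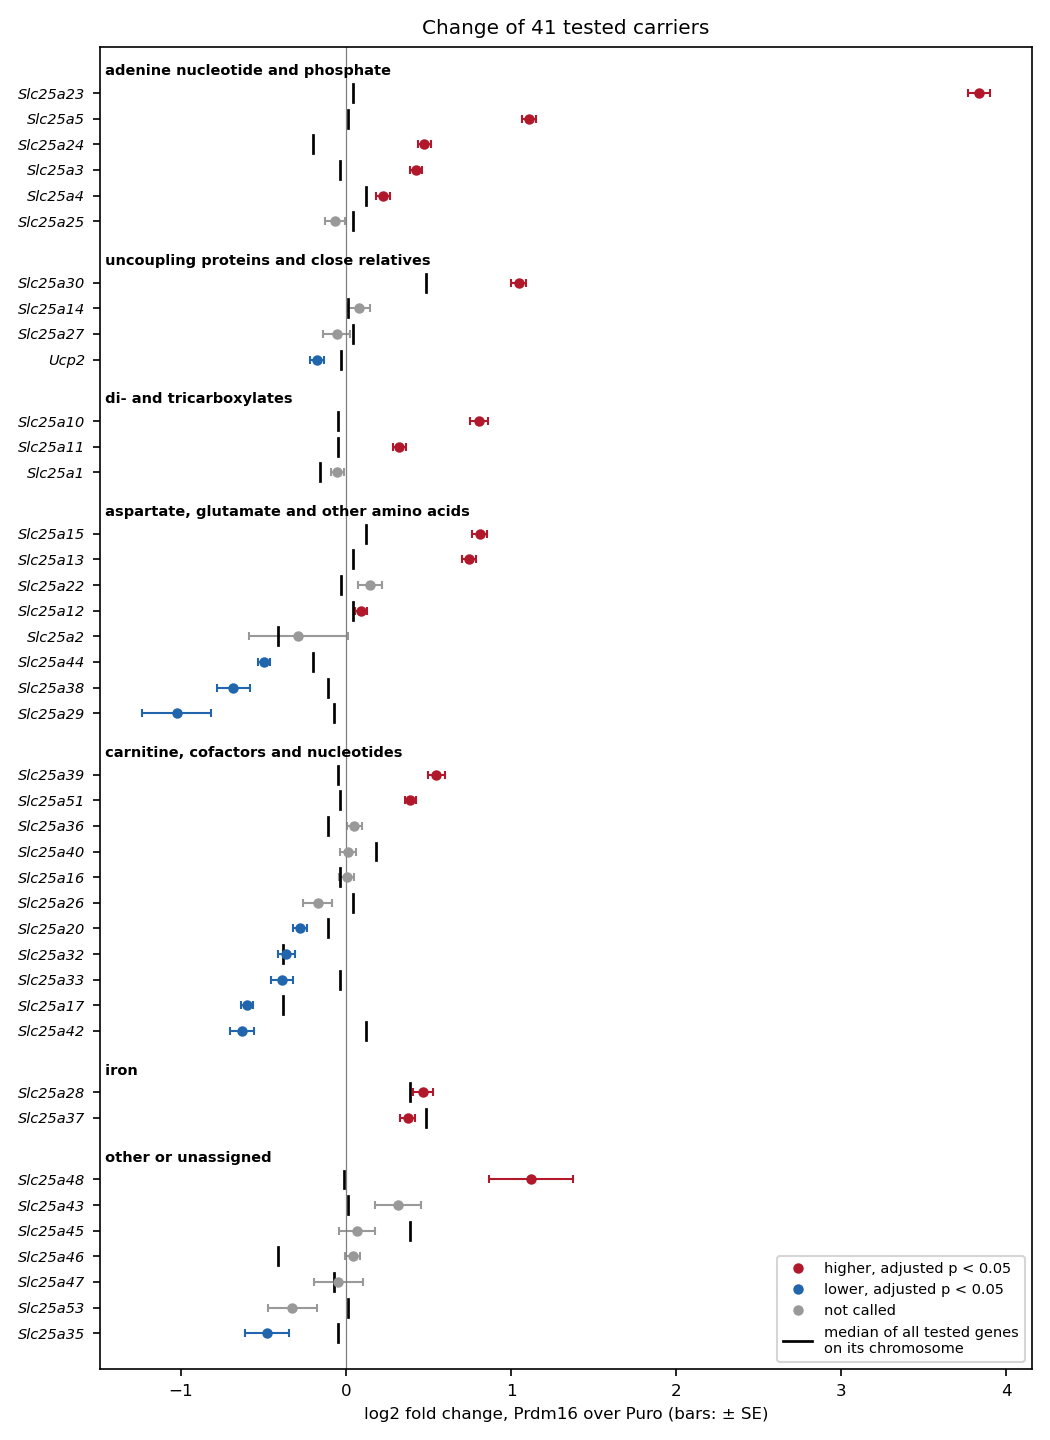
Log2 fold change (Prdm16 over Puro, bars ± SE) of 41 tested carriers by role, coloured by call, with a black tick at the median log2 fold change of all tested genes on the carrier's chromosome. Slc25a23 stands at 3.83, and the iron carriers Slc25a28 and Slc25a37 lie near their chromosome's tick.

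Summed over the 49 carriers, the Puro libraries held 2359 ± 19.7 CPM and the Prdm16 libraries 2914 ± 45.0 CPM (1 SD, n = 3), a ratio of 1.24. Adenine nucleotide and phosphate carriers made up most of that difference, with 907 ± 10.02 and 1331 ± 31.8 CPM. Slc25a3, Slc25a4 and Slc25a5 together held 748 ± 9.12 and 1051 ± 28.2 CPM, which was 31.6% to 31.9% of the carriers' counts in Puro and 35.7% to 36.5% in Prdm16 libraries. Carriers of di- and tricarboxylates summed to 190 ± 4.67 and 241 ± 5.87 CPM, those of amino acids to 268 ± 1.92 and 280 ± 2.11 CPM, and those of acylcarnitines, cofactors and nucleotides to 629 ± 1.87 and 656 ± 3.93 CPM. The other 46 carriers together held 1611 ± 10.6 and 1863 ± 17.8 CPM, a ratio of 1.16, so the difference in the sum was not limited to those 3.

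**Figure D3:**
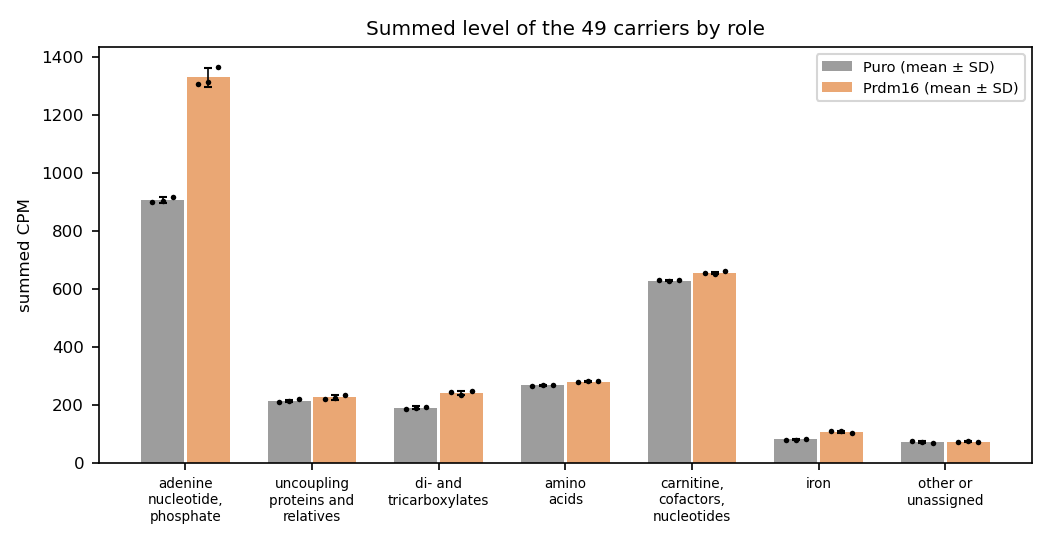
Summed CPM of the carriers of each role, with bars at the mean of 3 libraries, error bars of 1 SD and dots for single libraries. The adenine nucleotide and phosphate carriers stand at 907 CPM in Puro and 1331 CPM in Prdm16 libraries, while amino acid carriers stand at 268 and 280 CPM.

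Several substrates have more than 1 carrier, and the balance within such pairs was compared as the share of the first gene in the pair's counts per kb. Both genes were tested in 10 of the 12 pairs listed. In 9 of them the shares of the groups did not overlap, which with 3 against 3 libraries gives an exact two-sided permutation p of 0.1, the smallest it allows, and an adjusted p of 0.111 over the 10 pairs, so none could pass. Slc25a4 held 62.0%, 61.2% and 63.7% of its pair with Slc25a5 in the Puro libraries and 49.6%, 45.7% and 46.3% in the Prdm16 libraries. The difference was −15.1 percentage points. Which gene of this pair held more depends on the transcript lengths used: in CPM it was Slc25a4 in both groups. Slc25a23 held 3.92%, 4.81% and 4.41% of its pair with Slc25a24 and then 32.0%, 31.4% and 32.6%. Slc25a12 held 48.1% ± 0.533 and 37.1% ± 0.477 (SD, n = 3) of the aspartate/glutamate pair, so per kb citrin exceeded aralar more in the Prdm16 libraries. That order depends on the transcript lengths used. In CPM aralar stood above citrin in both groups, at 65.0 against 34.4 in Puro and 69.1 against 57.7 in Prdm16 libraries. Slc25a14 held 48.9% ± 1.09 and 32.9% ± 0.0996 of its pair with Slc25a30. Slc25a10 held 33.6% ± 0.539 and 41.4% ± 1.37 of its pair with Slc25a11, and Slc25a39 held 87.2% ± 0.40 and 90.8% ± 0.749 of the glutathione pair with Slc25a40. The iron pair overlapped between groups, with 61.3% ± 0.865 and 62.8% ± 2.19 for Slc25a28 (exact permutation p = 0.4).

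**Figure D4:**
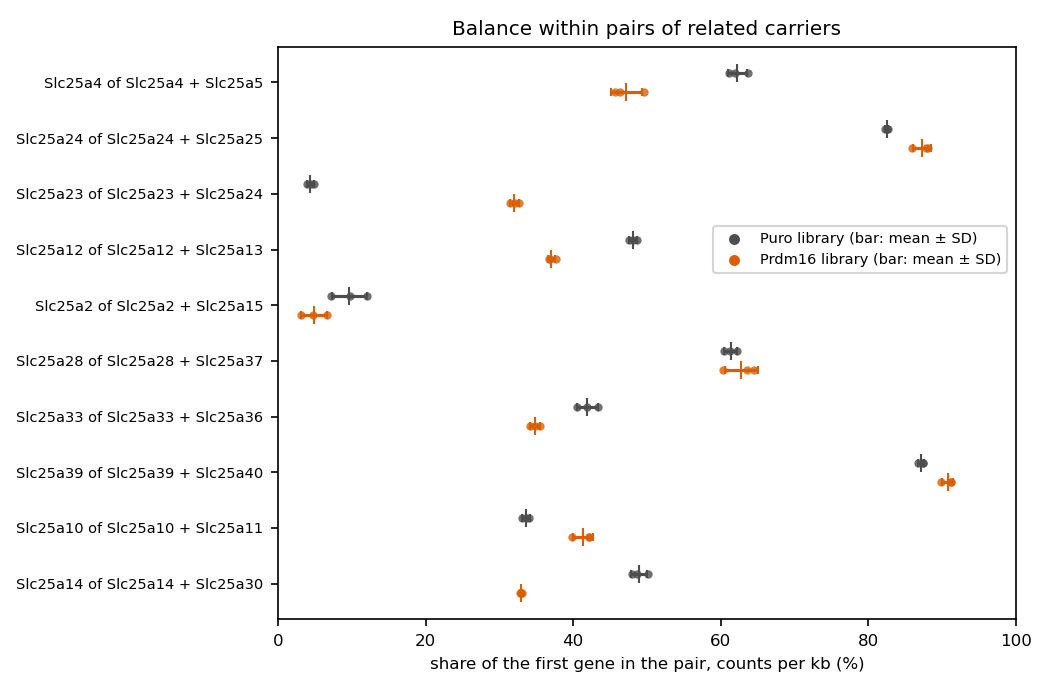
Share of the first gene in each pair's counts per kb of transcript, as dots for single libraries and bars for the mean ± SD of 3 libraries. The share of Slc25a4 goes from 62.3% to 47.2% and that of Slc25a23 from 4.38% to 32.0%, while the iron pair overlaps.

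Whole chromosomes differed in their median change, and the carriers were read against that. The median log2 fold change of tested genes was 0.49 on chromosome 14, 0.39 on 19, −0.38 on 15 and −0.41 on 18, and between −0.20 and 0.18 on every other chromosome. These 4 chromosomes hold 8 of the 42 tested carriers. With the median of each chromosome removed, 18 carriers were called higher and 13 lower, and 13 of the 42 changed their sign or their side of the threshold. Slc25a37 on chromosome 14 went from 0.38 to −0.11 (adjusted p = 0.0449), and Slc25a28 on 19 from 0.47 to 0.08 (adjusted p = 0.251). Slc25a32 on chromosome 15 went from −0.36 to 0.02 (adjusted p = 0.734), while Slc25a17 on the same chromosome kept its call at −0.22 (adjusted p = 0.000358). Slc25a46 on chromosome 18 went from 0.04 to 0.45 (adjusted p = 3.96e-06). Slc25a30 on chromosome 14 was still called at 0.56. Slc25a23, Slc25a5, Slc25a10, Slc25a13 and Slc25a15 changed by at most 0.12. Removing the medians thus changed some calls, but what caused the medians, and whether it acts on these carriers, was not tested.

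Other genes of mitochondrial transport, from lists chosen by function, were counted in the same fit. Of 56 tested genes in 9 lists 31 were higher, 13 lower and 12 did not pass. Over all tested genes 37.5% were called higher, 38.0% lower and 75.6% in either direction, so many calls are usual for any list. With chromosome medians removed 33 of the listed genes were higher and 9 lower. The ABC transporters of mitochondria rose for 4 of 4, with Abcb10 and Abcb8, both of the inner membrane, at log2 fold changes of 1.19 ± 0.07 and 1.10 ± 0.05. Both subunits of the pyruvate carrier rose, Mpc1 by 0.61 ± 0.09 and Mpc2 by 0.45 ± 0.05, as did the sideroflexin Sfxn3, from 123 ± 5.46 to 205 ± 4.07 CPM (0.74 ± 0.04, adjusted p = 2.23e-08), on chromosome 19 with its median of 0.39. Outer membrane channels rose for 3 of 4, with Vdac2, on chromosome 14 with its median of 0.49, at 0.66 ± 0.03 and Vdac1 at 0.39 ± 0.03, and Tspo did not pass. Genes of the route that inserts carriers into the inner membrane had 2 higher, 6 lower and 5 not passing of 13. The receptor subunit Tomm22 (−0.41 ± 0.04) and the small chaperone Timm8b (−0.37 ± 0.04) fell, Tomm22 lying on chromosome 15 with its median of −0.38, whereas the channel gene Timm22 had 0.06 ± 0.04 (adjusted p = 0.191). Genes of calcium and proton exchange had 3 higher and 5 lower of 8, with Ccdc109b, the inhibitory subunit of the calcium uniporter, at −1.01 ± 0.05 and the exchanger Letm1 at 0.45 ± 0.05.

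Enzymes that work with particular carriers, from the same lists, were set beside them. Of all tested genes 37.5% were called higher and 38.0% lower. All 6 enzymes of the malate-aspartate and glycerol phosphate shuttles rose, with a median log2 fold change of 0.96. Gpd2, the glycerol phosphate dehydrogenase of the inner membrane, rose by 1.52 ± 0.04 from 94.9 ± 3.12 to 272 ± 8.07 CPM (SD, n = 3), and Gpd1, its cytosolic partner, by 4.93 ± 0.19 from 0.15 ± 0.0215 CPM. The carriers of the malate-aspartate shuttle, Slc25a11, Slc25a12 and Slc25a13, had 0.32, 0.09 and 0.74. Of the carnitine shuttle genes Cpt1a, on chromosome 19 with its median of 0.39, rose by 1.18 ± 0.03. Crat rose by 1.07 ± 0.04 and Cpt2 by 0.83 ± 0.05, whereas Cpt1c fell by 1.12 ± 0.05 on the log2 scale. Cpt1b (0.12 ± 0.11) and Slc22a5 (−0.12 ± 0.07) did not pass, and Slc25a20, the carrier of that shuttle, had −0.28 ± 0.04. Citrate enzymes rose for 5 of 6, with Acaca at 0.91 ± 0.05 and Aco1 at 0.78 ± 0.04, and Me1 fell by 0.41 ± 0.04, while the citrate carrier Slc25a1 did not pass. Carrier and enzyme genes thus had changes of like sign in the malate-aspartate shuttle, where the call of Slc25a12 was lost under most other settings. At Slc25a20 the sign was opposite to that of Cpt1a, Crat and Cpt2 but the same as that of Cpt1c.

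Promoter windows from RefSeq (GRCm38.p6, 250 bases before to 50 after the start) were found for 38 of the 49 carriers and searched on both strands for 6 motifs. None of the carriers' 48 windows held the extended binding site of ERR receptors, TCAAGGTCA, which stood in 0.423% of all 32851 windows, or a direct repeat of AGGTCA spaced by 1 base, which stood in 0.0396%. Both motifs are so rare that 48 windows would seldom hold them, so their absence says little about the carriers. The NRF1 core GCGCATGC stood in 2 windows of carriers and in 2.71% of all windows, the ETS site CCGGAAGT in 1 and in 3.89%, and the GC box GGGGCGGGG in 6 and in 11.4%. The E-box CACGTG stood in 8 of the 48 windows (16.7%), of 7 carriers, and in 7.15% of all windows. Windows of 1 gene can overlap, and those of Slc25a14 held the same site, which was counted in each. Of those 7 carriers 2 were called higher, 1 was called lower, 3 did not pass and 1 was not tested. The matches of the carriers called higher, Slc25a13 and Slc25a15, are shown with the motif in capitals, 125 and 77 bases before the start, at chr6:6217268-6217323 and chr8:22398324-22398379, both on the minus strand.
Slc25a13: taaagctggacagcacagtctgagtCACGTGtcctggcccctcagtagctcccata
Slc25a15: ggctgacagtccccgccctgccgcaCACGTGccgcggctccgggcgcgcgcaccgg
These windows differ around the shared 6 letters, and a match describes letters, not binding.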

How the data were processed

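The deposited values are raw whole-number counts, 1 row per symbol and 1 column per library, not normalized by the authors. The submitters' processing notes name STAR, featureCounts, Subread and the mouse build mm9, with no role; versions, the strand setting and how reads with several matches were treated are not given there. Depth limited genes of low count: 3 counts stood for 0.0852 to 0.104 CPM.

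Low genes were removed by edgeR's filterByExpr (13805 of 24197 kept; the others held 0.0297% of the counts), scaled by TMM and tested two-sided with edgeR 4.0.16 (glmQLFit, glmQLFTest) in R 4.3.3 at an adjusted p of 0.05. The fit was tested on simulated data. SE is the log2 change over the root of F. Libraries of a group differed by a chi-square per gene of 2.08 to 8.85, above sampling noise, and each was counted. Lengths are of the longest GENCODE M21 transcript matched to RefSeq (GRCm38), and chromosomes are from RefSeq GRCm38.p6, by symbol; counts were made on mm9, and no gene positions were transferred. Intervals, floors and SEs do not cover mapping errors.

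The carriers, roles, pairs and lists were chosen with earlier results of these data known. Full values were given for carriers called and changed by 1 or more in log2 size, for each role's most abundant member and the one with the smallest p, and for pair members described; others were named after their values were seen. From each list up to 2 genes of smallest p were to be named, and further ones were chosen after their values were seen. Alternatives were RLE and upper-quartile scaling, other filters, DESeq2 1.42.0, limma-voom (limma 3.58.1), a replicate block, Prdm16 left out, an adjusted p of 0.01, chromosome medians removed through offsets, and leaving out each library. The values of 1 tested carrier are not reported here; it stays in the counts and sums.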

Additional observations from a re-analysis of the deposited data

How the results depend on the processing

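The counts of carriers called were stable across the 16 alternatives: 16 to 19 higher and 10 to 13 lower, against 17 and 10. Leaving out single libraries gave 16 to 18 higher and 10 to 11 lower. Of 671 alternative values of single carriers 634 kept sign and side of the threshold, and 26 of the 42 tested carriers did so throughout. Removing the chromosome medians changed 13 carriers, more than any other alternative. It reversed Slc25a37 (−0.111), Slc25a32 (0.0202), Slc25a1 (0.102), Slc25a2 (0.121), Slc25a45 (−0.320), Slc25a40 (−0.169) and Slc25a47 (0.0254). Upper-quartile scaling gave −0.00628 for Slc25a40 and −0.0139 for Slc25a16, and the 1 CPM filter −0.00195 for Slc25a16. Leaving out single libraries gave −0.0216 to 0.0279 for Slc25a40, −0.0136 to 0.0349 for Slc25a16, −0.0901 to 0.0363 for Slc25a47 and −0.0269 to 0.167 for Slc25a45. Apart from Slc25a37 and Slc25a32, these carriers were not called in the first place. In the edgeR fit with chromosome medians removed, Slc25a1, Slc25a40 and Slc25a45 passed with the reversed sign (adjusted p = 0.0336, 0.0113 and 0.0208). The cause was not tested.

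The shares within pairs kept their direction with raw counts and without each library; without length scaling the Slc25a2 share differed by −2.10 rather than −4.80 points and the Slc25a33 share by −4.52 rather than −7.12. The carriers' share of all counts differed by 0.0685 percentage points, and by 0.0663 to 0.0700 without single libraries. Same-numbered libraries of the groups had correlations of their deviations of −0.16, 0.10 and −0.07. No pairing by number was seen, but deviations from a mean of 3 libraries cannot exclude it. With the replicate block 16 carriers were higher and 10 lower, the call of Slc25a12 being lost (adjusted p = 0.0998).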

Other observations

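Slc25a26, the carrier of S-adenosylmethionine, overlaps Lrig1 in the annotation, and 5.07% of its 50-base windows also stood there. Lrig1 had 115 ± 3.44 CPM in Puro and 145 ± 1.92 CPM in Prdm16 (SD, n = 3; log2 fold change 0.34 ± 0.04), while Slc25a26 had 7.54 ± 0.0661 and 6.71 ± 0.561 CPM; it did not pass, but did without Prdm16 replicate 2 (−0.24) and with chromosome medians removed (−0.22). Besides Slc25a5, the carriers with over 10% of windows in another annotated gene were Slc25a33 (12.6%), Slc25a36 (11.8%) and Slc25a40 (10.3%). Slc25a53 did not pass with all libraries (log2 fold change −0.32 ± 0.15, adjusted p = 0.0718), with 4.68 CPM in Puro replicate 1 against 3.35 and 3.31 CPM in replicates 2 and 3. Without Puro replicate 1 it had −0.15 (adjusted p = 0.319), and it passed without Puro replicate 2 (−0.41) or 3 (−0.41). Slc25a43 had 0.31 ± 0.14 (adjusted p = 0.0595) and passed without Puro replicate 3 (0.39).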
